A study of Canis lupus familiaris with 2 samples.

Results

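The miR-181 family was examined in SNP cells, a canine mammary gland tumour cell culture, as the 4 probes named cfa-miR-181a, cfa-miR-181b, cfa-miR-181c and cfa-miR-181d among the 291 dog miRNA probes of the array (the dog prefix cfa is left off below). The members were taken by name alone, each had 1 spot on each array, and no probe for an opposite (passenger) arm of any of them was on the array. The spheroid sample came from non-adherent SNP cells that were picked from the growth medium and grown as spheroids with no matrix added. The monolayer sample came from adherent SNP cells kept as a monolayer. Each form gave 1 total RNA sample, whose RNA integrity was 9.7 in the spheroids and 9.8 in the monolayer. Each sample was labelled with the dye Cy5 and hybridised to 1 array. Both cultures were dispersed with trypsin when nearly confluent. Because the spheroids were started from picked cells, the picking of cells and the form of growth cannot be told apart.

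miR-181 miRNAs share a seed, the short stretch near the 5′ end that pairs with target mRNAs, and differ from each other in few bases outside it. In human cells miR-181a and miR-181b repress mRNAs of survival and signalling proteins, among them the survival protein BCL2. The family is best known from lymphocyte development, where miR-181a tunes T cell receptor sensitivity in mice, and in breast cancer cells it is induced by TGF-beta and has been linked to growth as spheres. The array measured miRNAs only, so none of these targets could be examined.

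In mammals the family is encoded as pairs of neighbouring hairpins. The dog gene table used here (assembly UU_Cfam_GSD_1.0) holds 6 hairpin genes in 3 pairs. miR-181a and miR-181b have 2 hairpin genes each. The first pair lies beside PTPRC, which encodes the leukocyte protein CD45, and the other lies within NR6A1, which encodes an orphan nuclear receptor. miR-181c and miR-181d have 1 hairpin gene each, in a pair between NANOS3 and the locus LOC102154341. The array reads mature miRNAs, so the hairpin genes that gave rise to the miR-181a and miR-181b signal cannot be told apart. Whether the 4 probes read a signal shared between members was not tested.

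All 4 members were detected on both arrays. miR-181a, miR-181b and miR-181d were slightly higher in the spheroids in the normalized values, and miR-181c was slightly lower. None was 2-fold or more apart in those values. The largest difference, that of miR-181b, came from the dimmest member, and its size depended strongly on how the background was treated. Detection meant a raw spot intensity above the mean of the blank spots plus 2 SD, which was 79.8 scanner units on the spheroid array and 89.8 on the monolayer array. Of the 291 miRNAs, 201 (69.1%) passed this limit on the spheroid array and 180 (61.9%) on the monolayer array, and 178 passed it on both. With 1 array per culture no difference had a replicate check, no p-value was computed, and a lower amount of a miRNA per cell cannot be told apart from fewer cells that hold it.

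miR-181a, the best studied member, had the brightest spheroid spot of the 4. Its raw intensity was 247 units in the spheroids and 182 in the monolayer. The spheroid spot was 1.36 times as bright before any correction. The authors' deposited values follow from the scanner values by subtracting the blank mean and scaling each array, as worked out here by comparing both. In them miR-181a stood at 84.7 in the spheroids and 59.1 in the monolayer, a ratio of 1.43. After the background correction and quantile normalization used here its log2 level was 7.64 in the spheroids and 7.40 in the monolayer. The log2 difference of 0.24 put it at place 42 of 178 from the most spheroid-high miRNA.

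miR-181b, which is made from the same hairpin pairs as miR-181a, had a raw intensity of 108 in the spheroids and 91.7 in the monolayer. The spheroid spot lay 20.2 blank SDs above the blank mean, whereas the monolayer spot lay only 2.78 above it, just over the limit. Its deposited values were 15.6 in the spheroids and 4.01 in the monolayer, a ratio of 3.88. One SD of the blank spots on the monolayer array equals 1.45 deposited units. Moving the monolayer value by that amount up or down gave ratios of 2.85 and 6.06. On the normalized scale, where the offset of 50 draws dim spots together, the log2 levels were 6.37 in the spheroids and 5.99 in the monolayer. That log2 difference, 0.38, was the largest of the family and ranked 27th of 178.

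miR-181c was the member whose raw signal barely differed, at 187 in the spheroids and 188 in the monolayer. The blank mean was lower on the spheroid array, at 76.7 against 85.1 on the monolayer array. The deposited values of miR-181c, which subtract it and scale each array, were 54.9 in the spheroids and 62.7 in the monolayer, with a monolayer to spheroid ratio of 1.14. The log2 levels were 7.28 in the spheroids and 7.51 in the monolayer. The log2 difference of -0.23 placed miR-181c 51st of 178 from the most spheroid-low miRNA.

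miR-181d, the partner of miR-181c in its hairpin pair, had a raw intensity of 178 in the spheroids and 161 in the monolayer. The deposited values were 50.4 in the spheroids and 46.5 in the monolayer, a ratio of 1.08. Its log2 levels of 7.22 in the spheroids and 7.11 in the monolayer gave a log2 difference of 0.11. This was the smallest difference of the family, and it lay within 2 spot SDs of 0. The plot of raw intensities shows the arrays closest for miR-181c and furthest apart for miR-181a, and that the miR-181b monolayer spot stood almost on the detection limit.

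**Figure D1:**
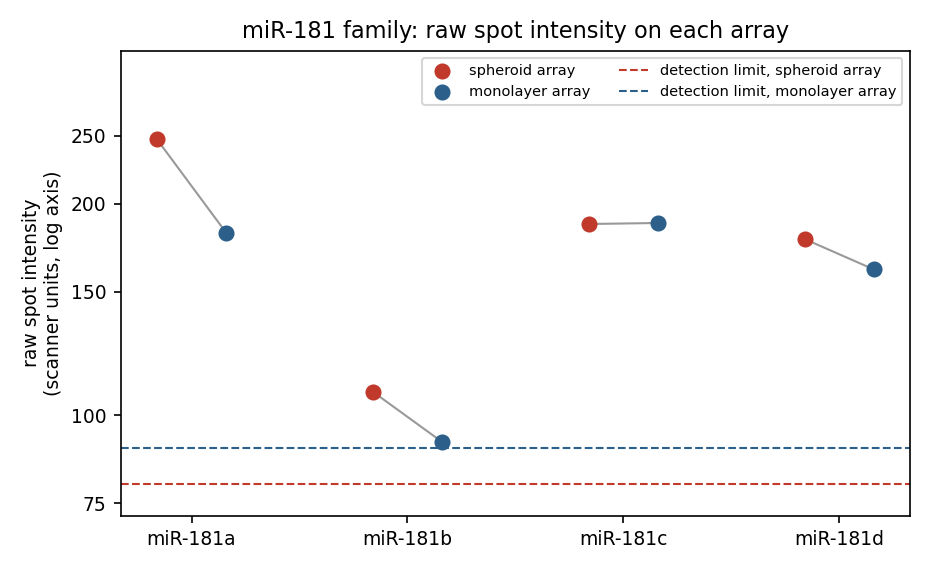
Raw spot intensity (scanner units, log axis) of the 4 miR-181 probes on the spheroid array (red, left point of each pair) and the monolayer array (blue, right point), 1 spot per point; dashed lines are the detection limits of the arrays in the same colours. miR-181a was at 247 in the spheroids and 182 in the monolayer, and miR-181b in the monolayer, at 91.7, lay just above the limit of 89.8.

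The order of the raw spot intensities also differed between the arrays. From the brightest of the 291 probes, miR-181a ranked 55th in the spheroids and 63rd in the monolayer, miR-181c 67th in the spheroids and 61st in the monolayer, miR-181d 70th in the spheroids and 73rd in the monolayer, and miR-181b 104th in the spheroids and 168th in the monolayer. miR-181b therefore had the largest shift in rank of the 4 and miR-181c was the member whose rank was lower in the spheroids. Brightness depends on the probe as well as on the miRNA, so these ranks compare each probe with itself across the arrays and do not order the 4 miRNAs by abundance.

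The median of the family sat within the bulk of the array in the normalized values. The family median was 0.17, against -0.05 for the 178 miRNAs detected on both arrays, whose middle range (25th to 75th percentile) ran from -0.27 to 0.22. miR-181c and miR-181d lay inside that range, and miR-181a and miR-181b lay above it. Above 0 were 3 of the 4 members, beside 44.9% of the 178. At 2-fold or more were 0 of the 4, beside 2.25% of the 178 higher and 2.81% lower in the spheroids. In the deposited values 1 member, miR-181b, was 2-fold or more higher, beside 12.9% of the 178, and 0 members were 2-fold or more lower, beside 14.0%.

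**Figure D2:**
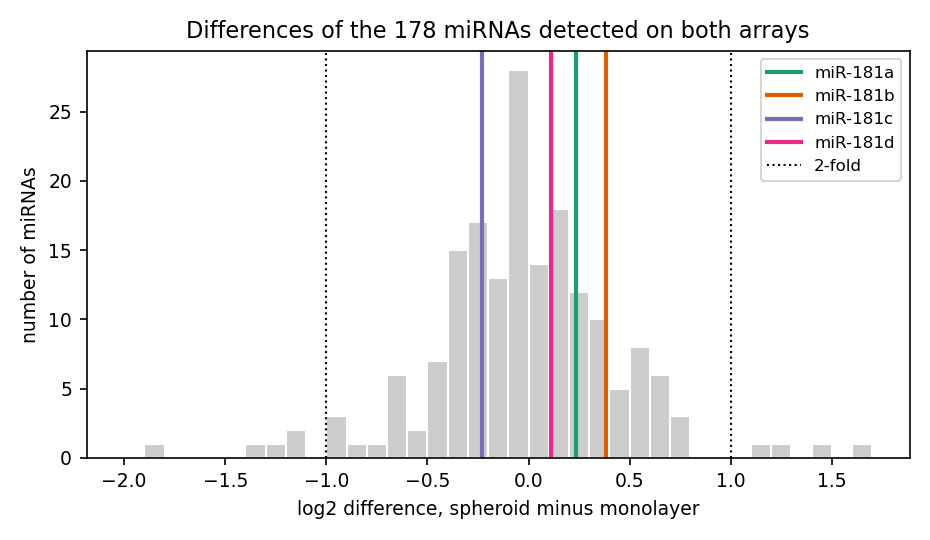
Histogram of the log2 difference, spheroid minus monolayer, of the 178 miRNAs detected on both arrays (grey, number of miRNAs per bin), with a coloured line for each miR-181 member and dotted lines at 2-fold. The members lie between -0.23 for miR-181c and 0.38 for miR-181b, inside the 2-fold lines.

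The only error available was that between spots. Control probes printed 8 times on each array gave a pooled SD of 0.065 for a log2 difference, and blank spots gave 0.08. In units of the control probe SD, the difference of miR-181b was 5.89, that of miR-181a 3.64, that of miR-181c -3.52 and that of miR-181d 1.68. Higher by more than 2 such SDs were therefore 2 of the 4 members, beside 32.6% of the 178, and lower by more than 2 was 1 of the 4, beside 36.0%. The dimmer control probes stood on either side of the 3 brighter members. S-Probe27 was brighter than they were, with raw intensities of 257 ± 18.1 in the spheroids and 294 ± 25.8 in the monolayer (SD over 8 spots), and its log2 difference had an SD of 0.079 after blank subtraction. S-Probe6, dimmer than those 3 and the nearest in brightness to miR-181b, was at 86.3 ± 1.42 in the spheroids and 98.3 ± 0.99 in the monolayer, and its SD after blank subtraction was 0.25. The control probe SD was taken before the arrays were scaled, so it leaves out any shift from the normalization. For miR-181c the log2 difference was 0.04 without scaling and -0.05 with median scaling, both within 1 such SD of 0. These spot SDs also say nothing of the variation between cultures or RNA preparations.

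The gene pairs were compared next. The mean log2 difference was 0.31 for miR-181a and miR-181b and -0.06 for miR-181c and miR-181d. The gap between the pairs was 0.37. Against miR-181c, the difference of miR-181a was larger by 0.47 and that of miR-181b by 0.61, which are 5.06 and 6.65 times the spot SD of such a contrast (0.092). Against miR-181d, the difference of miR-181a was larger by 0.13 (1.38 times) and that of miR-181b by 0.27 (2.97 times). Members of the same pair also differed: miR-181c minus miR-181d was -0.34 (-3.67 times), and miR-181a minus miR-181b was -0.15 (-1.59 times). The order of these distances depended on the treatment: miR-181c and miR-181d were further apart than miR-181a and miR-181d, which belong to different pairs, here and in 4 of 10 alternatives on the spot intensity, and closer together in 6, among them the deposited values (0.31 against 0.40). The contrast of miR-181a minus miR-181b was -1.44 in the deposited values, and median scaling gave 0.12, so it was not shown that these members moved alike. Apart from miR-181b and miR-181c, the members lay in different printing blocks. Unscaled, spots more than 5 blank SDs above the blank mean on both arrays had a median log2 difference of -0.16 in the miR-181b and miR-181c block. It was -0.12 in that of miR-181a and 0.25 in that of miR-181d, the latter near the top of the range of -0.27 to 0.25 over the 32 blocks. Also unscaled, miR-181a (0.54), miR-181b (0.43) and miR-181c (0.04) lay above the median of their block, and miR-181d (0.22) lay below its own. Whether print position entered these contrasts was not tested.

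The contrast between miR-181a and miR-181c kept its sign, at 0.41 to 0.76, in each of 10 other treatments of the spot intensities. These are not 10 separate checks, since scaling a whole array cancels in the contrast. It was 0.50 alike with median scaling, with the 75th percentile and without scaling. Spike control scaling repeated the 0.71 of the deposited values, and quantile normalization over the miRNAs detected on both arrays repeated the reported 0.47. The level of 0 itself moved with the scaling. With the arrays scaled to their 75th percentile, the median of the 178 miRNAs lay -0.23 from that of the reported values, without scaling 0.14, with the blank mean subtracted and the arrays scaled to their spike control spots 0.66 and after blank subtraction with quantile normalization -0.15. Set against the median of the 178 under the same treatment, miR-181a was above by 0.24 to 0.55, miR-181d by 0.11 to 0.38 and miR-181b by 0.32 to 2.08, and miR-181c was below, by -0.22 to -0.04. The 10 treatments give 7 distinct sets of such relative values, since some only shift all miRNAs alike. In absolute terms miR-181c was above 0 in 2 of the 10, at 0.04 without scaling and 0.42 with spike control scaling, and miR-181d was below 0 in 1, at -0.15 with the 75th percentile.

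**Figure D3:**
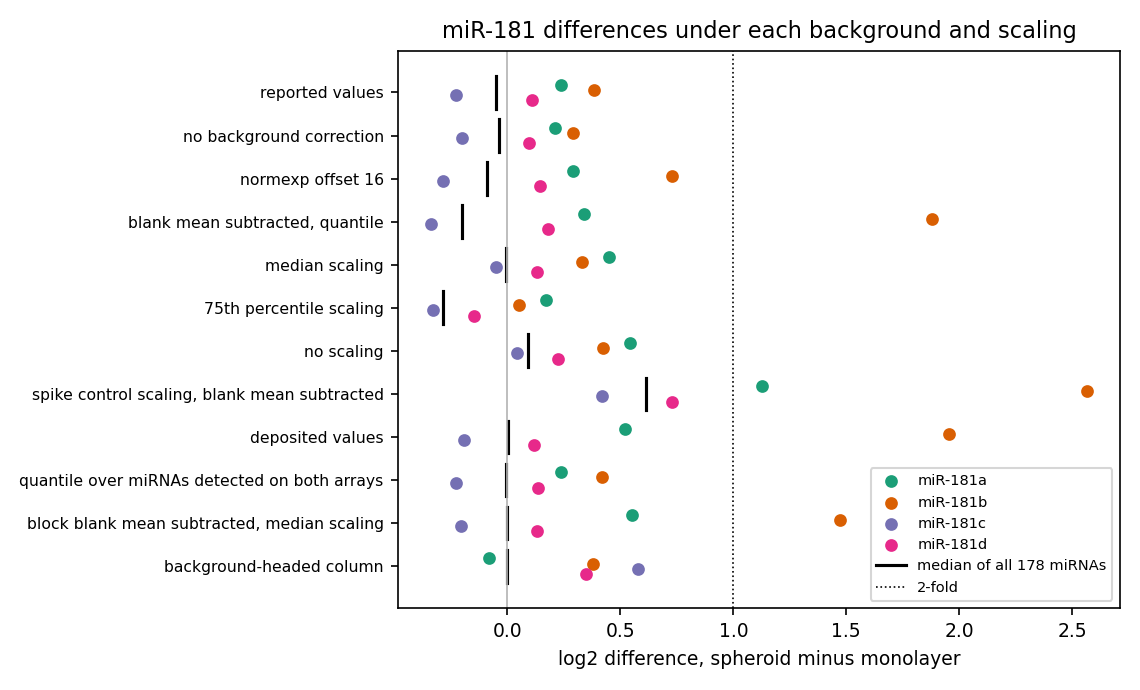
Log2 difference, spheroid minus monolayer, of the 4 miR-181 members (coloured points) under the reported values and 11 alternatives (rows), with the median of all 178 miRNAs as a black bar, a grey line at 0 and a dotted line at 2-fold. miR-181c lies left of the black bar in all rows but that of the background-headed column, and miR-181b spreads from 0.05 to 2.57.

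miR-181b had the widest spread. Its log2 difference was 0.05 with the 75th percentile, 0.73 with an offset of 16, 1.88 after blank subtraction with quantile normalization, 1.96 in the deposited values and 2.57 with spike control scaling. Its rank from the most spheroid-high of the 178 ran from 3 to 50 over the 10 alternatives on the spot intensity. In the deposited values it ranked 5th. Blank spots also varied with position. The mean of the blank spots ran from 75.2 to 79.6 over the 32 printing blocks of the spheroid array and from 81.9 to 88.7 over those of the monolayer array. miR-181b and miR-181c were printed in the same block, whose blank mean was 75.2 in the spheroids and 82.0 in the monolayer, the lower end on the monolayer array too. Read against its own block, the miR-181b spot stood 32.8 units above blank in the spheroids and 9.70 in the monolayer, where the array-wide blank mean left 31.3 in the spheroids and 6.57 in the monolayer. Its log2 difference was then 1.47, and that of miR-181c, from the same block, was -0.20. At a stricter limit of 5 blank SDs, 4 members were detected in the spheroids and 3 in the monolayer, where miR-181b fell short of 96.9.

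The scanner tables hold another intensity for each spot, in a column headed as background. Over the dog miRNA probes, detected or not, its median was 0.82 of the spot intensity on both arrays. Blank spots were close to this, at 0.83 in the spheroids and 0.81 in the monolayer. For miR-181c this column read 142 in the spheroids and 91.4 in the monolayer, so it was higher in the spheroids, unlike the spot intensity. Its ratio to the spot was 0.76 in the spheroids and 0.49 in the monolayer, the 15th lowest of 291 on that array. For miR-181a the column read 160 in the spheroids and 144 in the monolayer, with ratios of 0.65 in the spheroids and 0.79 in the monolayer. The ratio of miR-181d was 0.95 in the spheroids, 282nd of 291 from the lowest, and 0.74 in the monolayer. That of miR-181b was 0.81 in the spheroids and 0.79 in the monolayer. The lit spots of the block that holds miR-181b and miR-181c, those brighter than the stricter limit on both arrays, had a median ratio of 0.78 in the spheroids and 0.56 in the monolayer over 23 spots, against 0.72 on each array over 546 spots. That monolayer value was the third lowest of the 32 blocks. Processed in the same way as the spot intensity, the column gave log2 differences of 0.58 for miR-181c, 0.38 for miR-181b, 0.35 for miR-181d and -0.08 for miR-181a, beside 48.3% of the 178 miRNAs above 0. The contrast of miR-181a minus miR-181c was then -0.66, opposite in sign to that of the spot intensities. What the column measures is not given in the sources used here, and its part in the result was not tested.

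**Figure D4:**
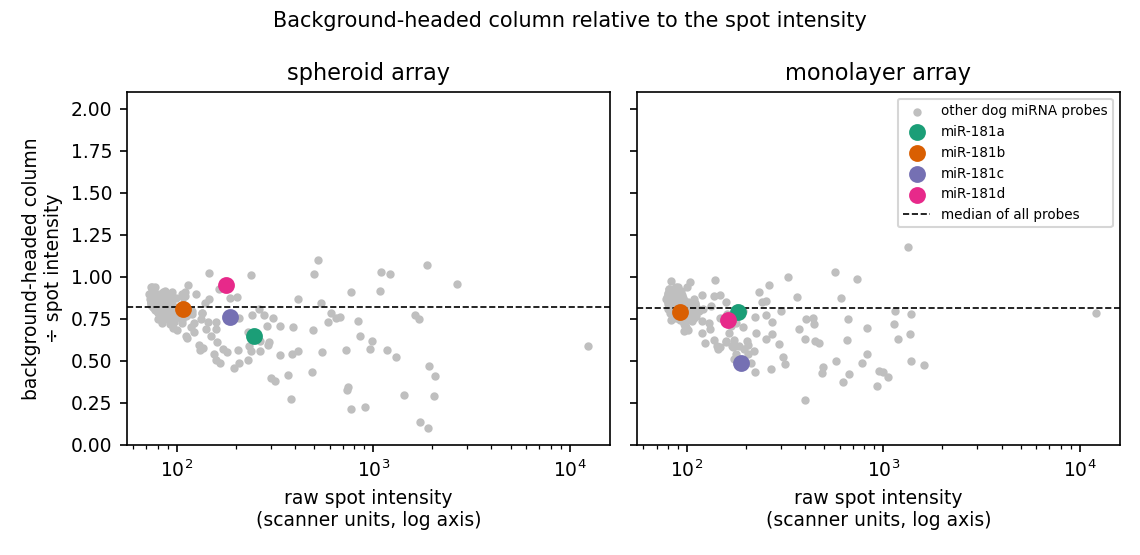
Ratio of the background-headed column to the spot intensity (vertical axis) against raw spot intensity (scanner units, log axis) on the spheroid array (left) and the monolayer array (right), for the 4 miR-181 members (coloured) and the other dog miRNA probes (grey), with the median of all probes dashed. miR-181c is at 0.76 on the spheroid array and 0.49 on the monolayer array. Other bright probes also lie far below the median of 0.82, which counts undetected probes too.

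Hairpins of miR-23a, miR-27a and miR-24 lie near those of miR-181c and miR-181d in mammals, and their distance in the dog was not measured here. miR-24 also has a further hairpin elsewhere in mammals. Their deposited values were 893 in the spheroids and 786 in the monolayer for miR-23a, 991 in the spheroids and 927 in the monolayer for miR-24, and 813 in the spheroids and 790 in the monolayer for miR-27a. Each was slightly higher in the spheroids. Their normalized log2 differences were -0.13 for miR-23a, -0.29 for miR-24 and -0.27 for miR-27a, slightly lower in the spheroids, so their direction depended on the scaling. miR-181c, at -0.23, lay within the range of these neighbours in the normalized values, and miR-181d, at 0.11, lay above it. In the deposited values miR-181d, with a log2 difference of 0.12, lay within their range of 0.04 to 0.18 and miR-181c, at -0.19, lay below it.

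The miRNAs whose difference was most like the family median, by absolute gap over the 2 arrays, were miR-93 (0.18), miR-32 (0.18) and miR-128 (0.17). The deposited values of miR-93, a member of the miR-17 seed family, were 388 in the spheroids and 299 in the monolayer. The likeness depended on the values used: deposited log2 differences were 0.38 for miR-93, 1.28 for miR-32 and 0.77 for miR-128, against a family median of 0.32.

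Groups of miRNAs that share a known link with miR-181 were set beside it. Of the miRNAs that, like miR-181a and miR-181b in human cells, repress BCL2, 4 of 6 were above 0 and 2 below, beside 44.9% of the 178 above 0, with a median of 0.45. Among these, miR-15b was at 0.63, miR-195 at 0.54 and miR-15a at 0.46. Whether the probes of this group read a signal shared between members was not tested. No member of this group was 2-fold or more apart, as for the miR-181 family, and its median stayed above 0 under all 11 alternatives, at 0.43 to 1.39. Between 4 and 6 members were above 0 there, beside 30.9% to 70.8% of the 178.

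The TGF-beta-responsive miRNAs had a lower median than the miR-181 family. Of the 8 on the array 6 were detected, 5 of them below 0, beside 54.5% of the 178, and miR-21 at 0, with a median of -0.24. The 0 of miR-21 is set by the method, since quantile normalization gives a miRNA of equal rank on both arrays the same value. miR-21 was at -0.27 in the deposited values and 0.34 with spike control scaling. In the normalized values miR-155 (-0.66), miR-24 (-0.29) and miR-27a (-0.27) were lowest, but in the deposited values miR-24 and miR-27a were at 0.10 and 0.04. Between 0 and 5 of the 6 were above 0 under the alternatives, and 3 in the deposited values. Their median was above 0 with median scaling, without scaling and with spike control scaling, where it reached 0.50. Of the clusters known to be low in human breast cancer stem cells, which restrain self-renewal genes there, all 8 members were detected and above 0, beside 44.9% of the 178, with a median of 0.30. Higher by more than 2 spot SDs were 5 of the 8, beside 32.6% of the 178, and miR-200a stood at 0.01. miR-429 (0.75), miR-141 (0.64) and miR-200c (0.51) led the group, and its median was 0.27 to 1.35 under the alternatives. Between 5 and 8 of the 8 were above 0 there, with the dim miR-200a at -0.36, miR-200b at -0.26 and miR-183 at -0.23 under the 75th percentile scaling, where 30.9% of the 178 were above 0. All 3 groups were chosen with earlier results of these data known.

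Markers of cell types were read to check the labelled origin of the sample and the blood cells, in which miR-181 is also abundant. All 7 epithelial markers were detected on both arrays, with summed deposited values of 1864 in the spheroids and 1246 in the monolayer, a median log2 difference of 0.35 and miR-205 alone 2-fold or more lower, at -1.90. Among the epithelial markers, miR-141, miR-200a, miR-200b, miR-200c and miR-429 are also members of the breast cancer stem cell clusters above. Those lists are therefore not separate observations. Of the 5 blood cell markers on the array, miR-142, miR-144 and miR-451 were detected on neither array. miR-150 and miR-223 were near the limit on both, at deposited values summing to 6.98 in the spheroids and 9.18 in the monolayer, with a list median of -0.05 (-0.45 to 0.22 over the alternatives). Of 4 fibroblast and smooth muscle markers 2 were detected, summing to 51.1 in the spheroids and 73.3 in the monolayer, with a median of -0.26 (-0.60 to 0.07 over the alternatives), while miR-143 and miR-145 were detected on neither array. Striated muscle markers summed to 13.2 in the spheroids and 29.9 in the monolayer, with 4 of 5 detected. They were dim, with deposited values of at most 6.02 in the spheroids and 10.1 in the monolayer. miR-133a on both arrays and miR-206 in the spheroids lay just over the detection limit. The list median was -0.20, which was -1.08 in the deposited values and -1.62 to -0.15 over all alternatives. miR-126 of endothelium and miR-124 of neurons, another cell type rich in miR-181, were detected on neither array.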

How the data were processed

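Per the labels' protocols, total RNA of 1 spheroid and 1 monolayer sample was Cy5-labelled with Toray's 3D-Gene kit. Per the file headers, the deposited scanner tables hold the median intensity of 3200 spots in the red channel with scans at 3 gains, not background corrected or normalized. The sources used here do not give the scanner. The authors' deposited value table holds normalized intensity values. They matched the raw intensity minus the mean of the blank spots, times 0.498 (spheroids) and 0.611 (monolayer), within 0.026 percent, and cells were empty for miRNAs below the detection limit.

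That limit was the mean plus 2 SD of 1268 blank spots, after leaving out the highest and lowest 5 percent. Reported levels are limma normexp (all spots, offset 50), log2, quantile normalized over 291 miRNAs. Dim differences are drawn towards 0 by the offset. Spot error was pooled over 6 control probes, each in 8 spots (42 degrees of freedom). R 4.3.3, limma 3.58.1, Python 3.11.15, pandas 2.3.3, numpy 2.4.6 and matplotlib 3.10.9 were used, and the normalization was tested on simulated data.

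Samples were grouped by the labelled sample type. Members, lists and alternatives were chosen with earlier results of these data known. The rule named the 4 members, the 3 miRNAs nearest the family median and up to 3 members per companion list. The 3 companion lists (BCL2, TGF-beta, breast cancer stem cells) and the markers of epithelium, blood cells, fibroblasts and smooth muscle, striated muscle, endothelium and neurons are in the report, and a further list is not reported here. The neighbours miR-23a, miR-27a and miR-24 and the block and background-headed column alternatives were added after the data were seen. The number of arrays limits the precision.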

Additional observations from a re-analysis of the deposited data

How the results depend on the processing

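Of 4 members, 0 were 2-fold or more apart in the reported values, 1 (miR-181b) after blank subtraction with quantile normalization, in the deposited values and with block blanks, and 2 with spike control scaling (miR-181b and miR-181a, at 1.13). The family median of 0.17 became 0.26 after blank subtraction with quantile normalization, -0.049 with the 75th percentile, 0.32 both without scaling and in the deposited values, 0.93 with spike control scaling, 0.34 with block blanks and 0.36 in the background-headed column. The mean of miR-181a and miR-181b (0.31) was 0.51 with an offset of 16, 1.11 after blank subtraction with quantile normalization, 0.39 with median scaling, 0.11 with the 75th percentile, 0.48 without scaling, 1.85 with spike control scaling, 1.24 in the deposited values, 1.01 with block blanks and 0.15 in the background-headed column. The mean of miR-181c and miR-181d (-0.06) was 0.041 with median scaling, -0.24 with the 75th percentile, 0.13 without scaling, 0.57 with spike control scaling and 0.46 in the background-headed column. The other alternatives moved these values by no more than 1 spot SD (0.065). The causes were not tested, apart from the scalings that shift all miRNAs alike. No paired analysis was possible because each culture had 1 sample, and for the same reason no replicate could be left out. Signal over background limits miR-181b most, since its monolayer spot lay 2.78 blank SDs above the blank mean.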
